A study of Mus musculus with 6 samples.

Results

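The xenobiotic receptor genes and the genes that equip cytochrome P450 enzymes were followed across liver tumours of 6 male mice, with 1 Affymetrix expression array for each. The 7 genes named were Nr1i3, Nr1i2, Ahr, Arnt, Rxra, Por and Alas1. Every probe set whose only gene symbol in the platform annotation was one of these names was taken, which gave 11 of 22626 probe sets for 6 of 12393 genes. Por, whose product passes electrons from NADPH to P450 enzymes, had no probe set under its own single symbol and is not analysed here. The genes were selected on their measured log2 levels and genotype differences on these same arrays, so their differences are given as a description, without a p-value for any of them, and counts of members past a threshold are no more than that.

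The tumours had been induced with a single dose of N-nitrosodiethylamine, 10 µg/g given at 14 days to mice of both genotypes, and were collected at 28 weeks. The groups were 3 wild-type tumours and 3 Alb/AEG-1 tumours, all labelled with the background strain CD-1. The Alb/AEG-1 animals carried a transgene for astrocyte elevated gene-1, injected as a 5.3-kb fragment into B6CBAF1/J embryos. The construct's name points to the albumin promoter, which is active in hepatocytes, and the labels describe neither the promoter nor the founder lines further. The titles carry animal numbers, which fall in a lower range (66 for wild-type replicate 1, 76 and 80 for replicates 1 and 2 of Alb/AEG-1) and a higher range (the other 3 animals, wild-type replicates 2 and 3 and replicate 3 of Alb/AEG-1). The labels do not say what the numbers stand for.

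CAR (encoded by Nr1i3) and PXR (Nr1i2) are nuclear receptors that respond to foreign chemicals and endogenous steroids and bile acids, and both bind DNA as partners of RXR alpha (Rxra). AHR (Ahr), a cytosolic receptor for planar aromatic compounds, moves to the nucleus on binding a ligand and pairs there with ARNT (Arnt). Their targets include P450 enzymes, which need haem, and ALAS1 (Alas1) catalyses the rate-limiting first step of haem synthesis in the liver.

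Each value below is an RMA level on the log2 scale, on which a difference of 1 is a doubling. The arrays were alike in scale, with medians between 5.82 and 5.84. Hepatocyte genes were high on every array, with means over 10 markers between 13.58 and 13.70 in wild-type and between 13.50 and 13.72 in Alb/AEG-1 tumours. In a bulk tumour, fewer cells of a type and less RNA per cell cannot be told apart.

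The upstream sequences of Nr1i3, Nr1i2 and Alas1 are shown because these genes separated the arrays by animal number on every probe set measured. All are from RefSeq (GRCm38.p6), read 5′ to 3′ on the gene's strand, and end just before the gene's outermost annotated start. They are chr1:171213720-171213933 for Nr1i3 (plus strand), chr16:38294850-38295074 for Nr1i2 (minus strand) and chr9:106247955-106248204 for Alas1 (minus strand). Capitals mark a matched motif.
Nr1i3: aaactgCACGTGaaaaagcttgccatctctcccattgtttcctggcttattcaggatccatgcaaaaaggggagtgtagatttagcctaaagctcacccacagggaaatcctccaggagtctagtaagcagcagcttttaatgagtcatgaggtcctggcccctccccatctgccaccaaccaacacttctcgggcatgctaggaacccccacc
Nr1i2: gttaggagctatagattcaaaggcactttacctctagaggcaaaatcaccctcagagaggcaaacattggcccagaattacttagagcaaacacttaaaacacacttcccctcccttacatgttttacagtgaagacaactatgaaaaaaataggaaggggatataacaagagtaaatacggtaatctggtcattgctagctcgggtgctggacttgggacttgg
Alas1: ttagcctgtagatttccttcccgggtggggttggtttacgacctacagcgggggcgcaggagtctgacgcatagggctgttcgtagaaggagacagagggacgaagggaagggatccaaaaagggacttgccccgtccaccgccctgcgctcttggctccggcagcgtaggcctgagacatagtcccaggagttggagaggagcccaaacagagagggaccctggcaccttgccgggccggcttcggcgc
The 250 bases before each annotated start of Nr1i3, Nr1i2, Arnt, Rxra and Alas1 were searched on both strands for 4 motifs, chosen after the values had been seen. The E-box CACGTG, read by clock and other basic helix-loop-helix factors, was in the Nr1i3 window, at chr1:171213726-171213731 near the 5′ end of the stretch shown, and in 6.02% of all 32851 windows of the same length. The AHR core GCGTG was in the Arnt window, 29 bases before the start, in 28.2% of all, and in 1 of the 2 Alas1 windows. That Alas1 match, at chr9:106247948-106247952, lies downstream of the stretch shown, in which no motif was matched. The nuclear receptor element AGGTCA was matched 2 times in 1 Rxra window and was in 14% of all windows. The D-box letters TTATGTAA and TTACGTAA, known from PAR bZIP clock factors, were in 0.931% of all windows and in none of those searched for the members. These matches do not overlap one another. A match is a description of letters and does not show binding.

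The genotype differences of these genes had an SE from 0.10 (Arnt) to 1.18 (Alas1), so near equality cannot be read from them. The mean was lower in Alb/AEG-1 tumours in 11 of 11 member probe sets, a direction that 53.2% of all probe sets shared, and the differences ran from -0.42 to -0.01. The lower numbers held 1 wild-type and 2 Alb/AEG-1 animals, and with the number range as a term 6 of 11 were lower, against 52.7% of all. By limma, with p-values adjusted by Benjamini-Hochberg across the whole table, 0 of 11 passed an adjusted p of 0.05 (0.00442% of all probe sets did), and 0 of 11 had an unadjusted p below 0.05 (8.06% of all). Both Arnt probe sets had groups that did not overlap, 2 of 11, against 14.7% of all probe sets. In both the Alb/AEG-1 values were the lower ones, as in 8.38% of all, and the reverse held for 0 members and 6.28% of all. Nothing is read from these counts, because the members were chosen with this comparison known.

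**Figure D1:**
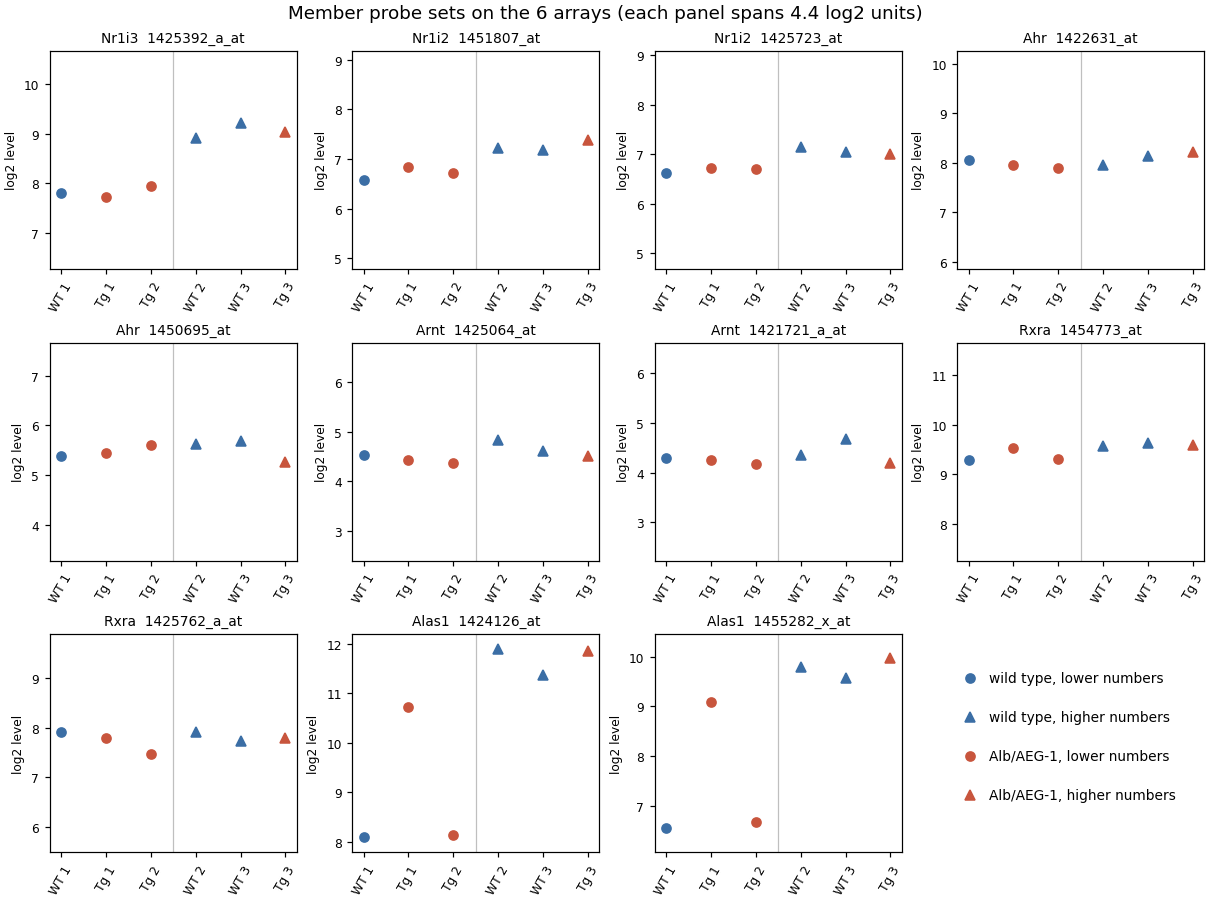
Log2 level (vertical axis, 4.4 units in every panel) of the 11 member probe sets on the 6 arrays (horizontal axis), with wild type in blue, Alb/AEG-1 in red, lower animal numbers as circles and higher ones as triangles. Nr1i3 lies between 7.72 and 7.95 at the lower and between 8.91 and 9.23 at the higher numbers, while Alas1 is low on 2 arrays, 1 of each genotype.

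Nr1i3 was at 7.82, 8.91 and 9.23 in wild-type replicates 1, 2 and 3 and at 7.72, 7.95 and 9.03 in Alb/AEG-1 replicates 1, 2 and 3. Each genotype held both low and high arrays, and the groups overlapped. The means were 8.65 ± 0.74 (SD, n = 3) and 8.23 ± 0.70, a difference of -0.42 ± 0.43 (SE). Animal number separated the same values without overlap, at 7.83 ± 0.11 (SD, n = 3) for the lower and 9.06 ± 0.16 for the higher numbers. In the fit with genotype and number range as terms, the higher numbers exceeded the lower by 1.22 ± 0.12 (SE), and the genotype difference became -0.01 ± 0.12. Within the ranges, Alb/AEG-1 minus wild type was 0.02 at the lower and -0.03 at the higher numbers. Leaving out wild-type replicate 1 gave a genotype difference of -0.83, and leaving out replicate 3 of Alb/AEG-1 gave -0.81. Each of these omissions leaves one genotype in a single number range.

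Nr1i2 was split into the same 3 low and 3 high arrays, with a smaller step. Its brighter probe set was at 6.58, 7.22 and 7.18 in the wild-type replicates and at 6.84, 6.72 and 7.39 in the Alb/AEG-1 replicates. The genotypes overlapped, with a difference of -0.01 ± 0.23 (SE), and it was 0.19 ± 0.09 with the number range as a term (0.20 among lower and 0.19 among higher numbers). The higher numbers lay above the lower ones without overlap, by 0.62 ± 0.09. In the other Nr1i2 probe set the values were 6.62, 7.15 and 7.05 against 6.71, 6.70 and 7.00, a genotype difference of -0.13 ± 0.16 and a step of 0.39 ± 0.09 by animal number, again without overlap.

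Rxra, the shared partner of both receptors, varied less. By its brighter probe set it was at 9.29, 9.57 and 9.64 in wild-type and at 9.54, 9.30 and 9.59 in Alb/AEG-1 tumours, so that the genotypes differed by -0.02 ± 0.12 (SE), and by 0.06 ± 0.10 with the number range as a term. The higher numbers lay above the lower ones by 0.24 ± 0.10, with a gap of 0.03 between the ranges. The other probe set did not show that step, with 7.92, 7.91 and 7.73 against 7.80, 7.46 and 7.79. Its genotype difference was -0.17 ± 0.12 and its difference by animal number 0.03 ± 0.13.

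Ahr showed neither pattern. Its brighter probe set was at 8.05, 7.96 and 8.14 in wild-type and at 7.96, 7.90 and 8.22 in Alb/AEG-1 tumours, with overlap between genotypes (-0.02 ± 0.11, SE) and between number ranges (0.14 ± 0.11). With the number range as a term the genotype difference was 0.02 ± 0.11. The dimmer one was at 5.39, 5.63 and 5.68 against 5.45, 5.60 and 5.27, with a genotype difference of -0.13 ± 0.12.

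Arnt was the member whose genotypes did not overlap. One probe set was at 4.54, 4.84 and 4.60 in wild-type and at 4.43, 4.37 and 4.51 in Alb/AEG-1 tumours, so that the means differed by -0.22 ± 0.10 (SE). The other was at 4.29, 4.34 and 4.67 against 4.26, 4.18 and 4.18, a difference of -0.23 ± 0.12. The closest values of the genotypes were 0.03 apart in each probe set, and both lay low on the array, at the 29.6th and 25.9th percentile of all probe sets by mean level. With the number range as a term the differences were -0.17 ± 0.10 and -0.20 ± 0.12. Leaving out wild-type replicate 2 brought the first to -0.13, and quantile normalization of the deposited values made the genotypes overlap in the second probe set. With that normalization, and also without wild-type replicate 3, the genotypes did not overlap in the dimmer Rxra probe set. Without wild-type replicate 1 the same held for a probe set of Ahr and of Nr1i2, and without Alb/AEG-1 replicate 3 for a probe set of Ahr. Leaving out an array cannot make separated groups overlap, and the share of all probe sets without overlap is not given for these settings. Markers of T and NK cells, which were also dim, were lower in Alb/AEG-1 tumours in 12 of 14 genes. That direction held for 53.2% of all probe sets, and its share by gene was not computed. Their list means per array were 4.48 to 4.64 in wild-type and 4.36 to 4.52 in Alb/AEG-1 tumours. Markers of macrophages and Kupffer cells went the other way, higher in 15 of 15 genes. The part of any of these cells in the Arnt values was not tested.

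Alas1 had the widest spread of the members. Its brighter probe set was at 8.10, 11.88 and 11.36 in wild-type replicates 1, 2 and 3 and at 10.72, 8.15 and 11.85 in Alb/AEG-1 replicates 1, 2 and 3. One tumour of each genotype, replicate 1 of wild type and replicate 2 of Alb/AEG-1, was far below the other 4 arrays. From lowest to highest the values spanned 3.78 log2, a 13.8-fold range, and 0.119% of all probe sets spanned as much. The other Alas1 probe set, which may also bind related transcripts, gave the same 2 low arrays, with 6.55, 9.79 and 9.57 against 9.08, 6.67 and 9.97.

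The genotype means of the brighter Alas1 probe set were 10.45 ± 2.05 (SD, n = 3) and 10.24 ± 1.90, a difference of -0.21 ± 1.18 (SE), and with the number range as a term it was 0.78 ± 0.65. Within the ranges it was 1.33 at the lower and 0.23 at the higher numbers. Leaving out wild-type replicate 1 gave -1.38 and leaving out replicate 2 of Alb/AEG-1 gave 0.84, with the sign turned. The first of these omissions leaves wild type in the higher number range only. The higher animal numbers lay above all lower ones, by 2.97 ± 0.65, although Alb/AEG-1 replicate 1 at the lower numbers stood only 0.65 below the nearest higher-numbered array.

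**Figure D2:**
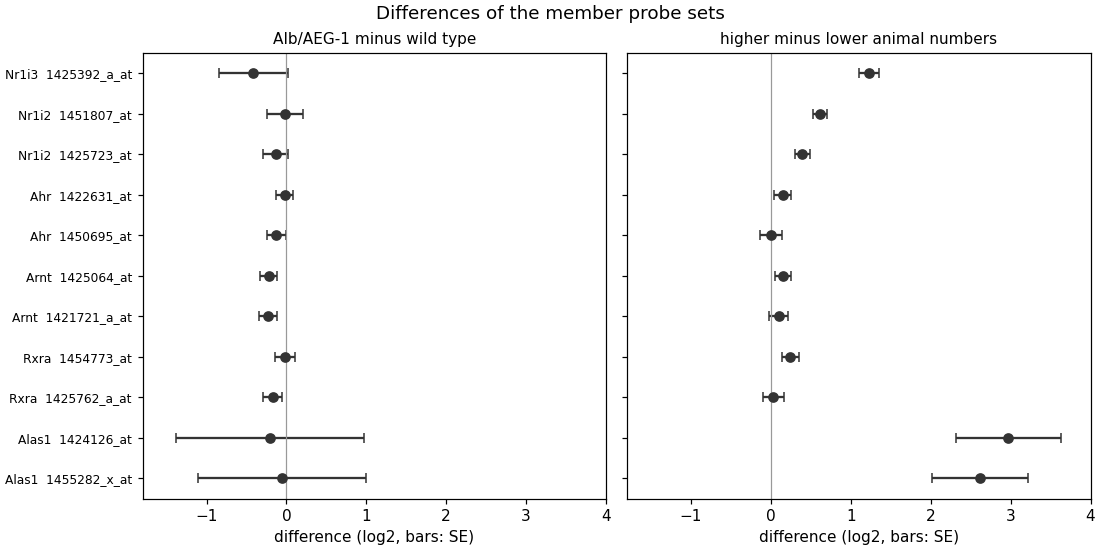
Difference in log2 level with its SE (bars) for the 11 member probe sets, as Alb/AEG-1 minus wild type (left) and as higher minus lower animal numbers in the fit with both terms (right). Nr1i3 sits at -0.42 on the left and at 1.22 on the right, and Alas1 at -0.21 and 2.97 for its brighter probe set.

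Over the 11 member probe sets, 6 from 4 genes (Nr1i3, Nr1i2, Rxra and Alas1) had every higher-numbered value above every lower-numbered one, a pattern of 7.93% of all probe sets (15.8% separated in either direction). At an unadjusted p below 0.05 for the range there were 5 of 11, against 8.76% of all. The number range was examined as a grouping of its own after these values had been seen, so these counts too are a description. Among all probe sets 1 passed an adjusted p of 0.05 for the range in limma (0.00442%), and it was not a member.

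The 3 genes with the most like profile were sought for Nr1i3 and Alas1, the members whose brightest probe set spanned at least 1 log2. Likeness was the root mean square difference between 2 profiles over the 6 arrays, each centred on its own mean, among 12392 other genes. For Nr1i3 they were Sult1d1, a sulfotransferase (0.199 log2), Tspan4, a tetraspanin (0.202), and Usp2, a ubiquitin-specific protease with rhythmic expression in the liver (0.209). Usp2 was at 6.31, 8.04 and 7.85 in wild-type and at 6.60, 6.58 and 7.77 in Alb/AEG-1 tumours. For Alas1 they were less alike: Nrep (0.651), Noct, which encodes the rhythmically expressed nocturnin (0.657), and Jun, a subunit of the transcription factor AP-1 (0.763). Noct was at 6.52, 9.33 and 9.58 against 8.70, 6.12 and 8.29, with the same 2 arrays low as for Alas1.

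Several clock genes, picked after their values had been seen, separated the number ranges as Nr1i3 did. Tef, a PAR bZIP factor of the clock's output, was at 7.71, 9.50 and 8.67 in wild-type and at 8.09, 7.85 and 9.16 in Alb/AEG-1 tumours. Per2, a repressor of the core loop, was higher at the higher numbers by 1.48 ± 0.27 (SE). Npas2, an activator of the loop, was at 6.42, 3.45 and 4.07 against 5.77, 6.22 and 3.74, a difference of -2.46 ± 0.21, higher minus lower numbers. Dbp, another PAR bZIP factor, overlapped between the ranges, with 5.91, 10.17 and 6.59 against 7.77, 7.03 and 9.62. The labels give no time of day, and the part of these genes in the Nr1i3 and Alas1 values was not tested.

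The genes around the members were taken from lists of receptor partners, targets, haem enzymes and electron donors. Of 104 measured genes in these lists, 0 passed an adjusted p of 0.05 between genotypes in limma, the lowest being 0.596, while an unadjusted p below 0.05 was reached by 4 higher and 6 lower genes. Over all genes, 0 of those represented by their brightest probe set passed (0%), with 3.86% higher and 4.47% lower at the unadjusted threshold. The median difference was -0.05 in the lists and -0.01 over all genes.

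Among 23 partners and regulators of the receptors, 0 passed at either threshold between genotypes. By animal number 3 were higher and 2 lower without overlap, against 8.3% and 8.09% of all genes. Among these, named after their values were seen, Cebpb differed by 1.13 ± 0.29 (SE) and Nr0b2 by -1.14 ± 0.29, higher minus lower numbers. Ppargc1a, a coactivator that also drives Alas1 in fasting, was at 7.21, 6.89 and 6.17 in wild-type and at 6.10, 5.69 and 6.76 in Alb/AEG-1 tumours (-0.57 ± 0.33, SE; adjusted p = 0.654 in limma). Nrip1, a corepressor, differed by -0.20 ± 0.13, Foxo1, a transcription factor held back by insulin, by -0.20 ± 0.15, and the coactivator gene Ncoa3 by -0.12 ± 0.09. Of 13 other nuclear receptors that pair with RXR or, like Nr4a1, can do so, 1 was lower at the unadjusted threshold. This was Ppara, the fatty acid sensor PPAR alpha, at 10.20, 10.79 and 10.32 against 9.95, 9.72 and 9.94. Thrb, a thyroid hormone receptor, differed by -0.27 ± 0.12, and the retinoic acid receptor genes Rarb and Rarg by -0.68 ± 0.42 and -0.15 ± 0.10.

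The other listed genes of haem synthesis did not share the spread of Alas1. Besides later enzymes, the list holds Alas2 and transporter genes such as Abcb10. The 12 measured genes of that list had a median genotype difference of 0.03, and 2 were lower at the unadjusted threshold. Alad, the second enzyme of the pathway, was at 10.90, 11.23 and 10.92 in wild-type and at 10.90, 10.10 and 10.38 in Alb/AEG-1 tumours (-0.56 ± 0.20, SE; adjusted p = 0.611 in limma). Abcb10, a mitochondrial inner membrane transporter, was at 8.56, 8.53 and 8.40 against 8.01, 8.03 and 8.31 without overlap (-0.38 ± 0.11). Ppox and Fech, the last enzymes of the pathway, differed by 0.29 ± 0.13 and -0.20 ± 0.11. By animal number 1 of the 12 was higher and 1 lower without overlap, against 8.3% and 8.09% of all genes.

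**Figure D3:**
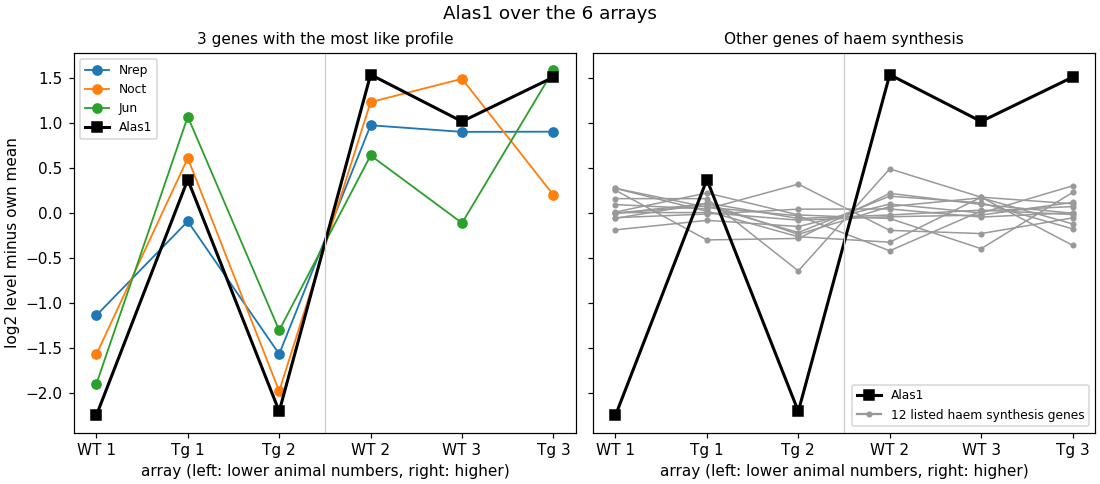
Log2 level minus the gene's own mean (vertical axis) on the 6 arrays (horizontal axis, lower animal numbers left) for Alas1 in black, with the 3 genes of most like profile on the left and 12 listed haem synthesis genes in grey on the right. Lines only link the values of 1 gene; Alas1 spans 3.78 log2 and Alad, the widest of the grey genes, 1.13.

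Haem breakdown and the turnover of ALAS1 were represented by 8 genes. Blvrb, a biliverdin reductase, was at 10.28, 10.49 and 10.28 in wild-type and at 10.63, 10.76 and 10.60 in Alb/AEG-1 tumours (0.32 ± 0.10, SE), higher without overlap but with an adjusted p of 0.596 in limma. Hmox1, the inducible haem oxygenase, differed by -0.15 ± 0.11, and the mitochondrial protease genes Clpp and Lonp1 by 0.12 ± 0.11 and -0.08 ± 0.08. Clpx, named after its values were seen, was at 10.98, 9.12 and 10.75 in wild-type and at 10.58, 10.89 and 9.69 in Alb/AEG-1 tumours. Its difference, higher minus lower animal numbers, was -1.04 ± 0.40, with overlap between the ranges. By animal number 2 of the 8 were higher and 0 lower without overlap, against 8.3% and 8.09% of all genes. The list for electron donors other than Por had 8 measured genes, and it also holds Pgrmc1 and Pgrmc2, which are not donors themselves. Among the 8 was Cyb5r1, a cytochrome b5 reductase. It was at 5.78, 5.60 and 5.58 in wild-type and at 6.00, 6.59 and 5.85 in Alb/AEG-1 tumours (0.49 ± 0.19, adjusted p = 0.611 in limma). Fdx1, the ferredoxin of mitochondrial P450 enzymes, differed by -0.20 ± 0.15, Cyb5r4 by 0.13 ± 0.12 and Cyb5a, encoding cytochrome b5, by -0.09 ± 0.08.

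Listed AHR targets gave 1 gene higher and 1 lower of 9 at the unadjusted threshold. Cyp1a2, the P450 enzyme of caffeine metabolism, was at 12.07, 12.10 and 12.32 in wild-type and at 11.79, 11.83 and 12.02 in Alb/AEG-1 tumours (-0.28 ± 0.10, SE; adjusted p = 0.611 in limma). Nfe2l2, encoding the antioxidant regulator NRF2, was at 9.25, 8.95 and 9.07 against 9.36, 9.45 and 9.31 (0.28 ± 0.10). Fmo2, a flavin monooxygenase, differed by -0.34 ± 0.16, and Cyp1a1, the enzyme most strongly induced through AHR, by -0.14 ± 0.10 from a low level.

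Of 22 listed CAR targets other than Alas1 and Por, 6 had a positive and 16 a negative genotype difference, with a median of -0.11. Over all genes the median was -0.01, and 53.2% of all probe sets were negative. These differences are from the fit without the number range, and the lower range held 2 of the 3 Alb/AEG-1 animals. At the unadjusted threshold 0 of the 22 were higher and 1 lower, the stress response gene Gadd45b (-0.34 ± 0.14, SE; adjusted p = 0.614 in limma). Cyp2c50, a P450 enzyme, differed by -0.71 ± 0.33 (-0.42 ± 0.15 with the number range as a term), Abcc2, a canalicular exporter, by -0.28 ± 0.13, and Gstm1, a glutathione transferase, by 0.21 ± 0.10. The Abcc2 and Gstm1 probe sets may also bind related transcripts.

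By animal number, 8 of the 22 CAR targets were higher and 0 lower at the higher numbers without overlap, where 8.3% of all genes were higher and 8.09% lower. These 8, named after their values were seen, were the P450 genes Cyp2b10, Cyp2b13, Cyp2c37, Cyp2c50 and Cyp2c54, the sulfotransferase genes Sult1d1 and Sult1e1, and the exporter gene Abcc3. Cyp2b10, the classical CAR target, was at 6.77, 7.35 and 7.91 in wild-type and at 5.32, 6.11 and 8.09 in Alb/AEG-1 tumours, on a probe set open to binding of related transcripts. Its step by animal number in the fit with both terms was 1.62 ± 0.38 (SE). Its genotype difference was -0.30 ± 0.38 in that fit and -0.84 ± 0.65 in the fit without the range. Cyp2c37 was at 11.12, 11.97 and 12.13 against 10.11, 10.64 and 11.87. The median step of the 22 genes was 0.21, and 0.003 over all genes.

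Genes of pericentral hepatocytes, the zone in which CAR and many P450 enzymes are enriched, moved with the same split. Of 11 pericentral markers 8 were higher and 0 lower at the higher numbers without overlap, against 8.3% and 8.09% of all genes. Of 6 periportal markers 0 were higher and 2 lower. Glul, Oat and Rhbg, named after their values were seen, were among the 8 higher pericentral markers. The mean of the 11 pericentral markers per array was 9.19 to 9.42 at the lower and 9.53 to 9.66 at the higher numbers. The mean of 6 periportal markers was 10.88 to 10.95 and 10.37 to 10.76. The part of this difference in the Nr1i3 values and those of its targets was not tested.

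**Figure D4:**
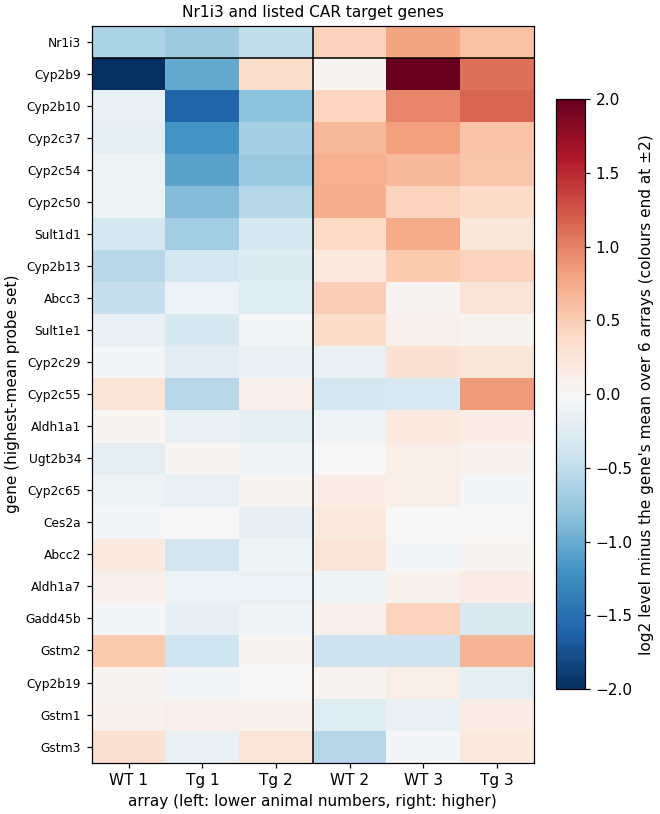
Log2 level minus the gene's mean over the 6 arrays (colour, red higher and blue lower, ending at 2 on either side) for Nr1i3 in the top line and 22 listed CAR targets, ordered by their step from lower (left) to higher (right) animal numbers. Without overlap, 8 of the 22 targets are higher on the right and 0 lower.

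Listed PXR targets included 15 measured genes, of which 4 were positive and 11 negative between genotypes, with 1 higher and 1 lower at the unadjusted threshold. Their median difference was -0.06, against -0.01 over all genes, and 53.2% of all probe sets were negative. The fatty acid transporter gene Cd36 was at 6.48, 6.21 and 6.95 in wild-type and at 7.34, 7.06 and 7.64 in Alb/AEG-1 tumours (0.80 ± 0.21, SE; adjusted p = 0.596 in limma). Cyp3a44, a P450 gene, differed by -0.32 ± 0.09 without overlap. Cyp3a11, the main PXR-induced P450 gene of mouse liver, was near the top of the scale and varied by at most 0.10 over the arrays. By animal number 4 of the 15 were higher and 0 lower without overlap, against 8.3% and 8.09% of all genes. These were Cyp3a11, the exporter genes Abcb1a and Abcc3, and the uptake transporter gene Slco1a4, also named after their values were seen. Abcc3, like Abcc2 and Gstm1, is also a listed CAR target, so the CAR and PXR counts are not separate observations.

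Markers of macrophages and Kupffer cells had a higher mean in Alb/AEG-1 tumours in 15 of 15 genes, where 53.2% of all probe sets had a lower one. Their median difference was 0.42, against -0.01 over all genes. By limma 0 of the 15 passed an adjusted p of 0.05 (0% of all genes did). An unadjusted p below 0.05 in the same test was reached by 5, all higher, as by 3.86% of all genes. The marker means per array overlapped, at 6.66 to 7.05 in wild-type and 7.01 to 7.58 in Alb/AEG-1 tumours. The lists of B cells, endothelial cells, stellate cells, cholangiocytes and erythroid cells overlapped between genotypes too in their means per array. Their part in the values of Ahr, which many of these cells also express, was not tested.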

How the data were processed

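The deposited values are log2 expression levels per probe set, made by the authors with RMA (background correction, quantile normalization, probe set summary) per the submitters' processing notes, which give no version. A shift shared by most genes would be removed by RMA. Trizol RNA (5 µg) had been labelled with biotin, per the labels' protocols. The 64 control probe sets were left out, leaving 22626 for limma 3.58.1 under R 4.3.3 (lmFit and eBayes, 2-sided tests). The moderated test had 7.53 degrees of freedom in total, and p-values were adjusted by Benjamini-Hochberg across the table. A second fit added the animal number range. Names came from the platform annotation, updated by gene ID (RefSeq, GRCm38.p6): 20380 probe sets had 1 symbol, 691 several and 1555 none. For a gene with several, the one of highest mean level was used. Members, lists and alternatives were chosen with earlier results of these data known. Named are all members, the 4 genes of each pathway list with the smallest unadjusted p, and the 3 most like genes of members spanning 1 log2 or more. Clock genes, pericentral markers and genes named for their step by animal number fall outside this rule and were chosen after their values were seen. Groups came from the genotype labels, and replicates were numbered in accession order. Different animal numbers were taken as separate animals. The precision is limited by the small number of arrays, 3 for each genotype. The fit was tested on simulated data. Plots used matplotlib 3.10.9 in Python 3.11.15.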

Additional observations from a re-analysis of the deposited data

How the results depend on the processing

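Across 15 alternatives, 0 member probe sets and 0 of the listed pathway genes passed an adjusted p of 0.05 in limma. Of 448 recomputed differences of 30 named pathway genes, 0 changed sign. These genes were chosen for small p-values on the same arrays, which favours a stable sign. Alternatives that change only the moderation, or leave out dim probe sets, cannot alter a difference. The sign count is therefore no test of robustness. Leaving out 1 array moved 18 of the 30 by over 1.5 times: Rarb ran from -1.06 to -0.24, Foxo1 from -0.28 to -0.04, Fdx1 from -0.33 to -0.08, Cyb5r4 from 0.02 to 0.23 (these 4 were nearest 0 without wild-type replicate 2) and Clpp from 0.008 to 0.20 (nearest 0 without Alb/AEG-1 replicate 1). With the mean of all probe sets of a gene, 1 member (Arnt) had an unadjusted p below 0.05, 1 member did not overlap between genotypes, and the step of Rxra by animal number was 0.13. With array weights, 10 pathway genes were lower at the unadjusted threshold. Leaving out each array in turn gave 0 to 2 member probe sets at that threshold (2, both of Arnt, without wild-type replicate 1), 2 to 4 without overlap (4 without wild-type replicate 1), 2 to 9 pathway genes higher (9 without wild-type replicate 1, 2 without wild-type replicate 3) and 4 to 14 lower (13 without wild-type replicate 1, 14 without Alb/AEG-1 replicate 3). The step of Ahr by animal number then ran from -0.00324 without Alb/AEG-1 replicate 3 to 0.29 without wild-type replicate 1, that of Nr1i3 from 1.15 to 1.29 and that of Alas1 from 2.42 to 3.60. The genotype difference of Nr1i2 ran from -0.22 to 0.12, of Rxra from -0.12 to 0.07, of Ahr from -0.12 to 0.04 and of Arnt from -0.28 to -0.13. Nothing is read from the member counts, since the members were chosen on this comparison. The shares of all probe sets at the unadjusted threshold and without overlap are not given for these alternatives. The shares given earlier are for single probe sets on all arrays and cannot stand in for them. Leaving out an array cannot make separated groups overlap, so a higher count without overlap there is not read as a gain. Fewer samples remain in the fits that leave out 1 array, and the cause of the changes was not tested. Leaving out wild-type replicate 1 or Alb/AEG-1 replicate 3 also leaves 1 genotype in a single number range. The alternatives for the animal number steps were chosen after seeing the data. No paired analysis was possible because the labels give no replicate numbers shared by the genotypes.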
